A study of Homo sapiens with 12 samples.

Results

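Chromatin remodelling complexes use the energy of ATP to slide, eject or exchange nucleosomes. Most of the genes described here encode their subunits, and all were taken by symbol from the deposited expression table. The rule took every row whose symbol begins with SMARC or INO80. It also took every symbol that consists of CHD and 1 digit from 1 to 9, or begins with ARID and a digit from 1 to 5. The rule found 39 of the 25146 genes of the table. They comprise 12 SWI/SNF subunits, 2 ATPases of the ISWI family, 2 further SNF2-family ATPases, 8 CHD genes, 5 INO80 subunits, 7 other genes with an ARID (AT-rich interaction) domain, and 3 entries that share a locus with a subunit gene. CHD2 is not analysed here. Of the 39 genes, 36 reached 1 FPKM (fragments scaled to gene length and to the size of the library) in at least 3 of the 12 libraries and were tested.

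SWI/SNF complexes, called BAF or PBAF in mammals, are built around 1 of the alternative ATPases SMARCA2 and SMARCA4 and around further sets of interchangeable paralogues. The choice among paralogues changes with cell type, and genes of these complexes are often mutated in cancer. CHD3 and CHD4 are the ATPases of NuRD, a complex that couples nucleosome remodelling to the histone deacetylases HDAC1 and HDAC2, both of which are targets of chidamide.

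Jurkat and Molt-4 are established lines of T-cell acute lymphoblastic leukaemia. The 4 groups were untreated Jurkat, Jurkat with chidamide, untreated Molt-4 and Molt-4 with chidamide, with 3 RNA sequencing libraries in each. Chidamide, an inhibitor of histone deacetylases, was given at 2 µM for 48 h, and the labels of the treated libraries read 48, 49 and 50 h for replicates 1, 2 and 3. The libraries are marked J and M, read here as Jurkat and Molt-4, the lines that the growth protocol names. Each line is 1 line and not a sample of patients, and the labels do not state whether replicates are separate cultures. The p-values therefore measure the spread between these libraries, which may be technical.

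Depth is unknown, because the values are FPKM. Summed FPKM lay between 698435 and 869059 per library. The 7SL RNA genes took between 2.25% and 5.35% of it in 11 libraries and 10.1% in untreated Molt-4 replicate 3. The library least like the rest of its group was untreated Jurkat replicate 3. The SD of its log2 ratios to replicates 1 and 2 was 0.332 and 0.337, while all other pairs of 1 group had 0.233 to 0.269. In its absence the Jurkat response counted 13 members higher and 8 lower in place of the 11 and 8 given below. The Molt-4 response counted 8 and 15 in place of 6 and 15. All genes tested moved as well. In Jurkat 32.6% were then higher and 25.9% lower in place of 30.9% and 25.4%. In Molt-4 37.3% and 26.5% were, in place of 35.4% and 24.6%. Of 9 T-lineage markers, 9 were at 1 FPKM or more in every library of both Jurkat groups and of treated Molt-4, and 8 in untreated Molt-4, where CD28 was lower. Their summed level went from between 2049 and 2105 FPKM to between 1353 and 1419 in Jurkat, and from between 849 and 934 to between 747 and 784 in Molt-4. The single markers did not move together. By their means CD3D, CD3E, CD3G and LCK fell in both lines, while CD2, CD28 and PTPRC rose in both. CD7 fell in Jurkat and rose in Molt-4, and the libraries of CD5 overlapped in both lines. The sum of 4 erythroid markers lay between 2029 and 2125 FPKM in untreated and between 2863 and 2917 in treated Molt-4, against 0.89 to 2.36 and 6.96 to 80.0 in Jurkat. In Molt-4, the sum of 4 epithelial markers moved from between 81.1 and 86.0 to between 209 and 214 FPKM, and that of 5 myeloid markers from between 0.75 and 1.89 to between 68.4 and 68.9. Most of the treated myeloid sum was LYZ, at a mean of 62.9 FPKM, followed by ITGAM at 4.93. CD14, CSF1R and MPO had means between 0.133 and 0.423 FPKM in treated Molt-4. In Jurkat the epithelial sum stayed at or below 1.85 FPKM with EPCAM listed at 0, and the myeloid sum at or below 3.25. The sum of 5 B-lineage markers, nearly all of it CD79A in Jurkat, went from between 24.9 and 29.8 to between 11.8 and 12.8 FPKM in Jurkat and from between 3.65 and 5.72 to between 18.6 and 23.4 in Molt-4, with MS4A1 listed at 0 in both Molt-4 groups. The 4 fibroblast and endothelial markers in the table summed to between 76.2 and 86.4 against 81.2 to 85.2 FPKM in Jurkat and to between 16.1 and 22.1 against 61.7 to 67.1 in Molt-4, with CDH5 listed at 0 in 3 of the 4 groups. Within the Jurkat sum PECAM1 fell from a mean of 78.9 to 41.5 FPKM while COL1A1 rose from 1.29 to 40.8. In Molt-4 both rose, COL1A1 from a mean of 0.54 to 34.0 FPKM and PECAM1 from 19.1 to 30.1. The part of these markers in the results below was not tested. In bulk RNA, fewer cells of a type and less RNA per cell cannot be told apart.

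Together the 39 genes held well under 1% of all FPKM. Their summed level was 1910 ± 20.7 FPKM in untreated and 1915 ± 36 in treated Jurkat (SD, n = 3). In Molt-4 it was 1569 ± 17.1 and 1464 ± 11.4 FPKM (SD, n = 3). As a share of all FPKM this was 0.256% and 0.271% in Jurkat and 0.197% and 0.188% in Molt-4.

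Without drug, most members were well expressed in both lines. In untreated Jurkat, 9 genes had a mean of 100 FPKM or more, 22 lay between 10 and 100, 4 between 1 and 10, and 4 below 1. In untreated Molt-4 these counts were 5, 24, 5 and 5. SMARCA4, CHD3, CHD4, INO80E and SMARCB1 led in Jurkat, with means of 210.5, 168, 164, 153 and 131 FPKM. The means of CHD3 and CHD4 there differed by less than the SD of CHD3, 5.56 FPKM. In Molt-4 the highest means were those of CHD4 at 199, SMARCE1 at 139, SMARCA4 at 113, SMARCB1 at 106 and SMARCC1 at 102 FPKM.

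**Figure D1:**
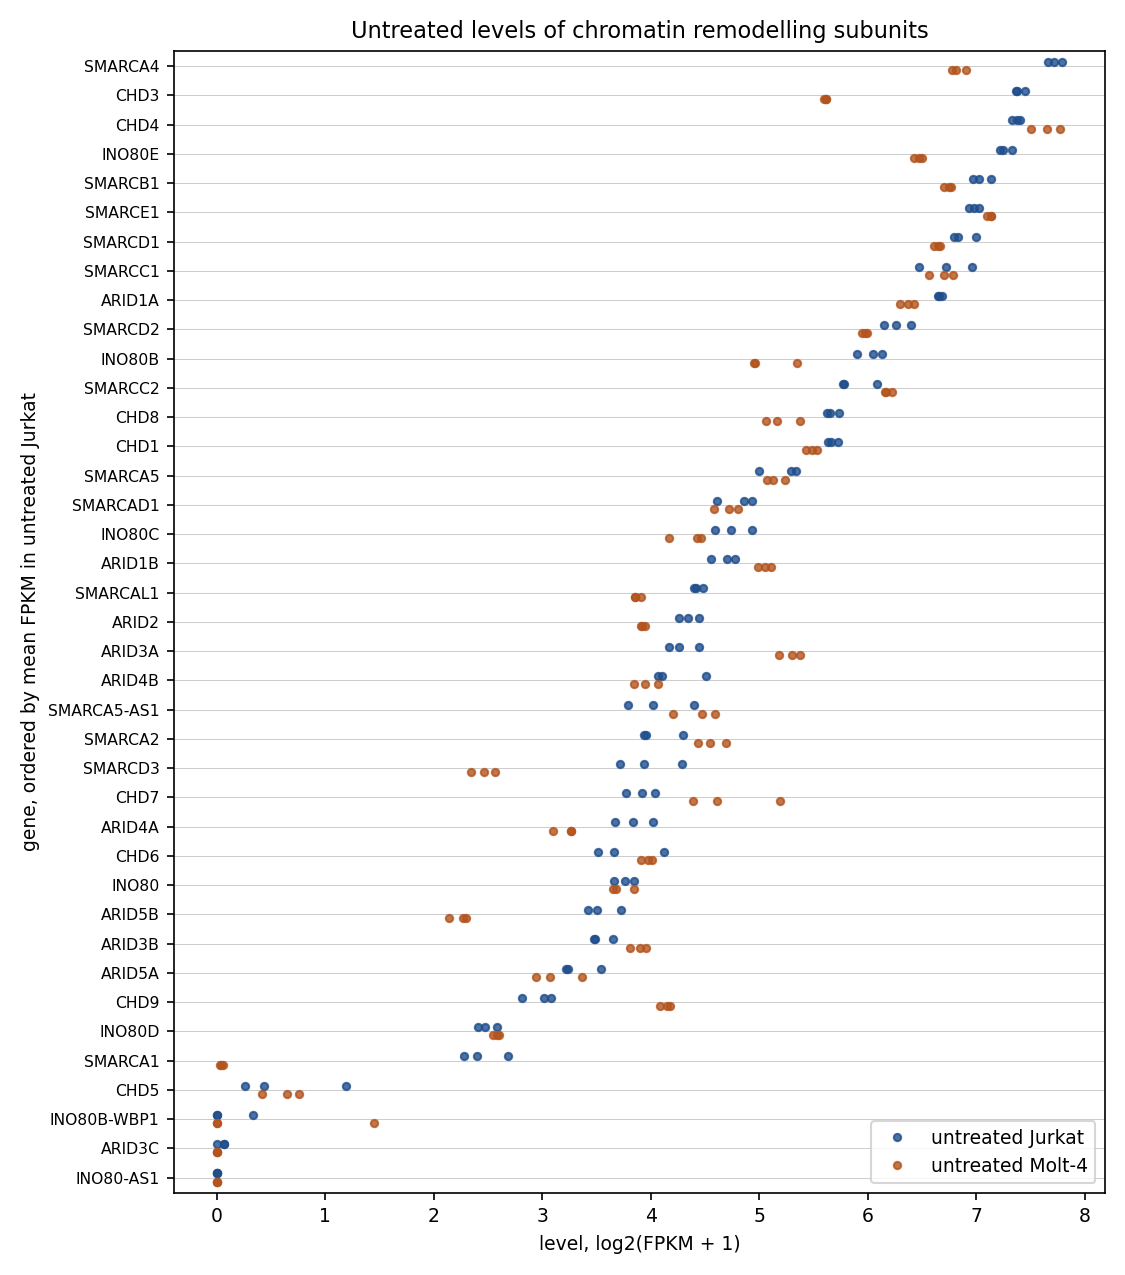
Level of the 39 genes in the 6 untreated libraries, as log2(FPKM + 1) on the horizontal axis, with genes ordered by their mean in untreated Jurkat; each point is 1 library. SMARCA1, CHD3, SMARCD3 and ARID5B lie clearly lower in Molt-4, and CHD9, ARID3A, CHD7 and SMARCA2 higher.

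Between the untreated lines 26 of the 36 tested members were called, 9 higher and 17 lower in Molt-4 (limma, adjusted p under 0.05). Over all genes tested 65.3% were called, 27.9% higher and 37.5% lower, so that the members lay near this background. The median difference, Molt-4 minus Jurkat on the log2(FPKM + 1) scale, was -0.19 for the members and -0.07 for all genes tested. SMARCA1 stood furthest apart, at 4.27, 3.86 and 5.45 FPKM in Jurkat and at 0.04, 0.02 and 0.03 in Molt-4 (log2 difference -2.41 ± 0.11 SE, limma adjusted p = 1.03e-09). The gene was tested because of its Jurkat levels, and with Molt-4 near 0 the size of its difference depends on the value added before the logarithm. CHD3 was at 164, 174 and 165 FPKM in Jurkat and at 47.9, 48.0 and 47.5 in Molt-4 (log2 difference -1.79 ± 0.05 SE, limma adjusted p = 1.15e-11). SMARCD3 and ARID5B were also lower in Molt-4, by log2 differences of -1.52 and -1.31. Neither gene's groups overlapped.

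On the other side stood CHD9, at 7.48, 7.09 and 6.05 FPKM in Jurkat and 17.1, 16.02 and 16.7 in Molt-4 (log2 difference 1.17 ± 0.09 SE, limma adjusted p = 3.35e-07). ARID3A followed with a log2 difference of 0.99, CHD7 with 0.82 and SMARCA2 with 0.49, each without overlap between the lines, as 66.7% of all genes tested. CHD7 stood at 19.9, 35.5 and 23.4 FPKM in untreated Molt-4. Of the 12 SWI/SNF subunits 4 were higher and 7 lower in Molt-4, and of the 5 INO80 subunits none was higher and 3 were lower, beside 27.9% higher and 37.5% lower of all genes. The call of ARID4B held in only 7 of 21 alternatives, that of SMARCE1 in 15 and that of SMARCD1 in 20. ARID4B lost it among others with quantile normalization (limma adjusted p = 0.199) and in a fit of only the groups compared (0.13). Without untreated Jurkat replicate 3 both ARID4B (limma adjusted p = 0.143) and SMARCE1 (0.0799) lost the call.

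With chidamide, the share of members called was close to that of all genes in each line, and more of the calls were falls in Molt-4 than in Jurkat. In Jurkat 19 of 36 members were called, 11 higher and 8 lower, where 56.3% of all genes tested were called, 30.9% higher and 25.4% lower (limma, adjusted p under 0.05). In Molt-4 21 of 36 were called, 6 higher and 15 lower, where 60.0% of all genes were called, 35.4% higher and 24.6% lower. Of the members called higher, 4 in each line were other ARID genes, and 1 in Jurkat was an entry sharing a locus. The median log2 change was 0.02 for the members and 0.04 for all genes in Jurkat, and -0.06 and 0.08 in Molt-4. Treated and untreated libraries did not overlap for 20 members in Jurkat (60.7% of all genes) and for 24 in Molt-4 (67.3%).

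The split of the calls depended on the scaling. With quantile normalization the share of all called genes that were higher moved from 59.0% to 41.3% in Molt-4, and the median change of all genes from 0.08 to -0.10. The members then counted 5 higher and 17 lower in Molt-4, and 13 higher and 7 lower in Jurkat. With totals made equal without 7SL RNA the Jurkat members counted 13 higher and 6 lower, and the share of all called genes that were higher in Jurkat moved from 54.9% to 62.4%.

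Called higher in both lines were 5 genes, SMARCD3, ARID5B, SMARCA1, ARID3B and ARID5A, and lower in both 7, ARID1B, CHD1, CHD3, INO80D, SMARCA4, SMARCAD1 and SMARCB1. In 6 members only the Jurkat test passed with a rise (ARID4B, CHD4, CHD7, INO80B-WBP1, SMARCA2 and SMARCE1), and in SMARCAL1 only the Jurkat test with a fall. In ARID3A only the Molt-4 test passed with a rise, and in 8 members only the Molt-4 test with a fall (ARID2, CHD9, INO80, INO80C, SMARCA5, SMARCC1, SMARCD1 and SMARCD2). SMARCA1 was below 1 FPKM in all Molt-4 libraries, was tested through its Jurkat levels, and lost its Molt-4 call with quantile normalization (limma adjusted p = 0.113). No member was called in opposite directions. The remaining 8 (ARID1A, ARID4A, CHD6, CHD8, INO80B, INO80E, SMARCA5-AS1 and SMARCC2) passed in neither line, and whether a response differs between the lines is given by its own test further on.

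**Figure D2:**
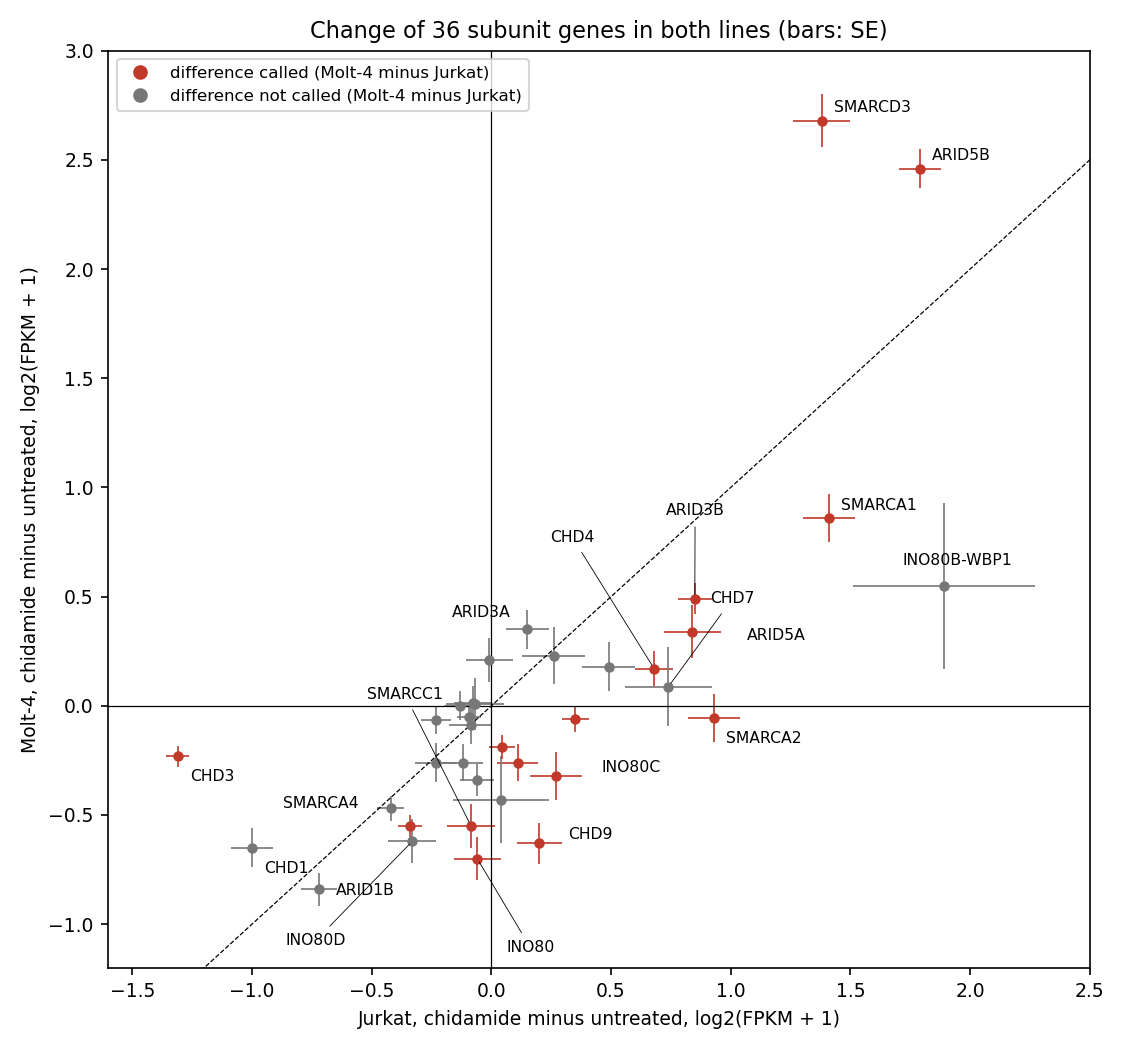
Change with chidamide of the 36 tested genes in Jurkat (horizontal) and Molt-4 (vertical), both as differences of log2(FPKM + 1) with standard errors as bars; the dashed line marks equal change and red points passed the test of the difference between the lines. SMARCD3 and ARID5B sit far up on the right at 2.68 and 2.46 in Molt-4, and CHD3 lies on the left at -1.31 in Jurkat.

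Among the SWI/SNF genes the ATPases changed in opposite directions in Jurkat. SMARCA4 (BRG1), the more abundant of the pair, stood at 221, 201 and 209 FPKM in untreated and 162, 150 and 159 in treated Jurkat. In Molt-4 it stood at 119, 111 and 108 FPKM and fell to 79.7, 85.7 and 78.2. Neither line's groups overlapped, and the fall was -0.42 ± 0.06 in Jurkat and -0.47 ± 0.06 in Molt-4 (log2 change ± SE, limma adjusted p = 5.18e-05 and 1.9e-05).

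SMARCA2 (BRM), the alternative ATPase, went the other way in Jurkat, from 14.5, 14.4 and 18.6 FPKM to 35.3, 30.1 and 27.6. All treated Jurkat libraries lay above all untreated ones (log2 change 0.93 ± 0.11 SE, limma adjusted p = 2.55e-05). In Molt-4 it stood at 24.8, 20.7 and 22.4 FPKM before and 22.9, 22.01 and 20.2 after treatment, with overlapping groups (log2 change -0.06 ± 0.11 SE, limma adjusted p = 0.698).

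The largest rise of a SWI/SNF gene was that of SMARCD3 (BAF60C), the member of the SMARCD set known from heart and skeletal muscle. Untreated Jurkat libraries held 14.4, 12.1 and 18.5 FPKM and treated ones 41.2, 39.7 and 39.5. Untreated Molt-4 libraries held 4.51, 4.09 and 4.93 FPKM and treated ones 35.7, 32.9 and 34.6. The groups were wide apart in both lines (log2 change 1.38 ± 0.12 SE in Jurkat and 2.68 ± 0.12 in Molt-4, limma adjusted p = 1.24e-06 and 3.03e-09). Treated Molt-4 libraries stayed below treated Jurkat libraries.

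RefSeq annotates 3 starts of SMARCD3, and a value per gene does not show which of them the RNA came from. The 250 bases before each start are shown to let the starts be compared. They lie on the minus strand of chromosome 7 in GRCh38.p14, at chr7:151277150-151277399, chr7:151276735-151276984 and chr7:151248695-151248944, and are printed 5′ to 3′. Capitals mark the GC box, the letters GGGCGG or their reverse complement CCGCCC, which factors of the SP family are known to bind.
SMARCD3 start 1: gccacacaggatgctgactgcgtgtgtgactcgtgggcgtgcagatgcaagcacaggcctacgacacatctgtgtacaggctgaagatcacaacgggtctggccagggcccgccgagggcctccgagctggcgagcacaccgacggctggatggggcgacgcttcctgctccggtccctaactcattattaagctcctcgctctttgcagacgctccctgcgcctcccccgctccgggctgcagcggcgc
SMARCD3 start 2: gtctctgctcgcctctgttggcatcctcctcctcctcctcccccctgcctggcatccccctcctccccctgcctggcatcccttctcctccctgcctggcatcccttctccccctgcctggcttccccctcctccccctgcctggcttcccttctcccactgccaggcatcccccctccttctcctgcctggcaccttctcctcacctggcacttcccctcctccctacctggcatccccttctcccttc
SMARCD3 start 3: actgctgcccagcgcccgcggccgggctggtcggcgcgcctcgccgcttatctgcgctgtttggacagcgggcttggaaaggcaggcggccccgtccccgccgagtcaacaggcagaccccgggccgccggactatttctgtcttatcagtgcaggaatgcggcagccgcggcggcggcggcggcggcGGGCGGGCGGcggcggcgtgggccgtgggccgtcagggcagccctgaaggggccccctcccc
The windows differ in base composition. CG pairs number 21 before start 1, 1 before start 2 and 34 before start 3, and 2 overlapping GC boxes were found before start 3 and none before the other two.

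The other SMARCD genes went down or did not pass. SMARCD1 (BAF60A) was at 99.2, 96.9 and 100.2 FPKM in untreated and 88.7, 86.1 and 85.3 in treated Molt-4, without overlap (log2 change -0.19 ± 0.06 SE, limma adjusted p = 0.0115). SMARCD2 (BAF60B), which is known for its part in granulocyte development, fell in Molt-4 from a mean of 61.7 to 48.5 FPKM (log2 change -0.34, limma adjusted p = 0.00158). In Jurkat both overlapped between treated and untreated libraries, at means of 117 and 120.2 FPKM for SMARCD1 and 76.1 and 73.0 for SMARCD2.

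SMARCB1, a core subunit lost in rhabdoid tumours, fell from 124, 129 and 139 FPKM to 102, 102 and 106 in Jurkat (log2 change -0.34 ± 0.05 SE, limma adjusted p = 0.000156). In Molt-4 it fell from 108, 107 and 103 FPKM to 69.5, 71.6 and 74.9 (log2 change -0.55 ± 0.05 SE, limma adjusted p = 2.19e-06). Both drops left a gap between treated and untreated libraries.

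SMARCC1 (BAF155), a scaffold subunit, stood at 103, 93.7 and 109 FPKM in untreated and 67.1, 68.0 and 72.5 in treated Molt-4 (log2 change -0.55 ± 0.10 SE, limma adjusted p = 0.000576). In Jurkat its untreated libraries spread from 87.8 to 124 FPKM and enclosed the treated ones at 96.6, 94.7 and 104. Its paralogue SMARCC2 (BAF170) passed in neither line, with means of 58.1 and 54.5 FPKM in Jurkat and 71.8 and 67.7 in Molt-4. SMARCE1 (BAF57), an HMG-box subunit, rose in Jurkat from a mean of 125 to 160.1 FPKM (log2 change 0.35, limma adjusted p = 0.000192), while in Molt-4 it was at 139 and 133 FPKM.

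The ARID subunits define which form of the complex is built. ARID1B fell in Jurkat from 24.98, 22.6 and 26.4 FPKM to 13.8, 15.4 and 14.6. In Molt-4 it fell from 33.4, 30.8 and 32.2 FPKM to 18.6, 16.3 and 17.6. The groups did not overlap in either line (log2 change -0.72 ± 0.08 SE and -0.84 ± 0.08, limma adjusted p = 7.23e-06 and 1.56e-06).

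Its paralogue ARID1A, the more abundant and a frequent target of mutation in cancer, passed in neither line, at means of 100.3 and 94.1 FPKM in Jurkat and 81.5 and 78.6 in Molt-4. ARID2, a subunit of PBAF, fell in Molt-4 from a mean of 14.2 to 11.7 FPKM (log2 change -0.26, limma adjusted p = 0.0195). That call was lost without untreated Molt-4 replicate 1 (limma adjusted p = 0.0521) and without treated Molt-4 replicate 3 (limma adjusted p = 0.0861). In all, 3 of 12 SWI/SNF genes were higher and 3 lower in Jurkat, and 1 was higher and 7 lower in Molt-4, with median changes of -0.09 and -0.22. All genes tested gave 30.9% higher and 25.4% lower in Jurkat, near the SWI/SNF genes, and 35.4% higher and 24.6% lower in Molt-4. The Jurkat median of the SWI/SNF genes turned to 0.06 with quantile normalization.

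**Figure D3:**
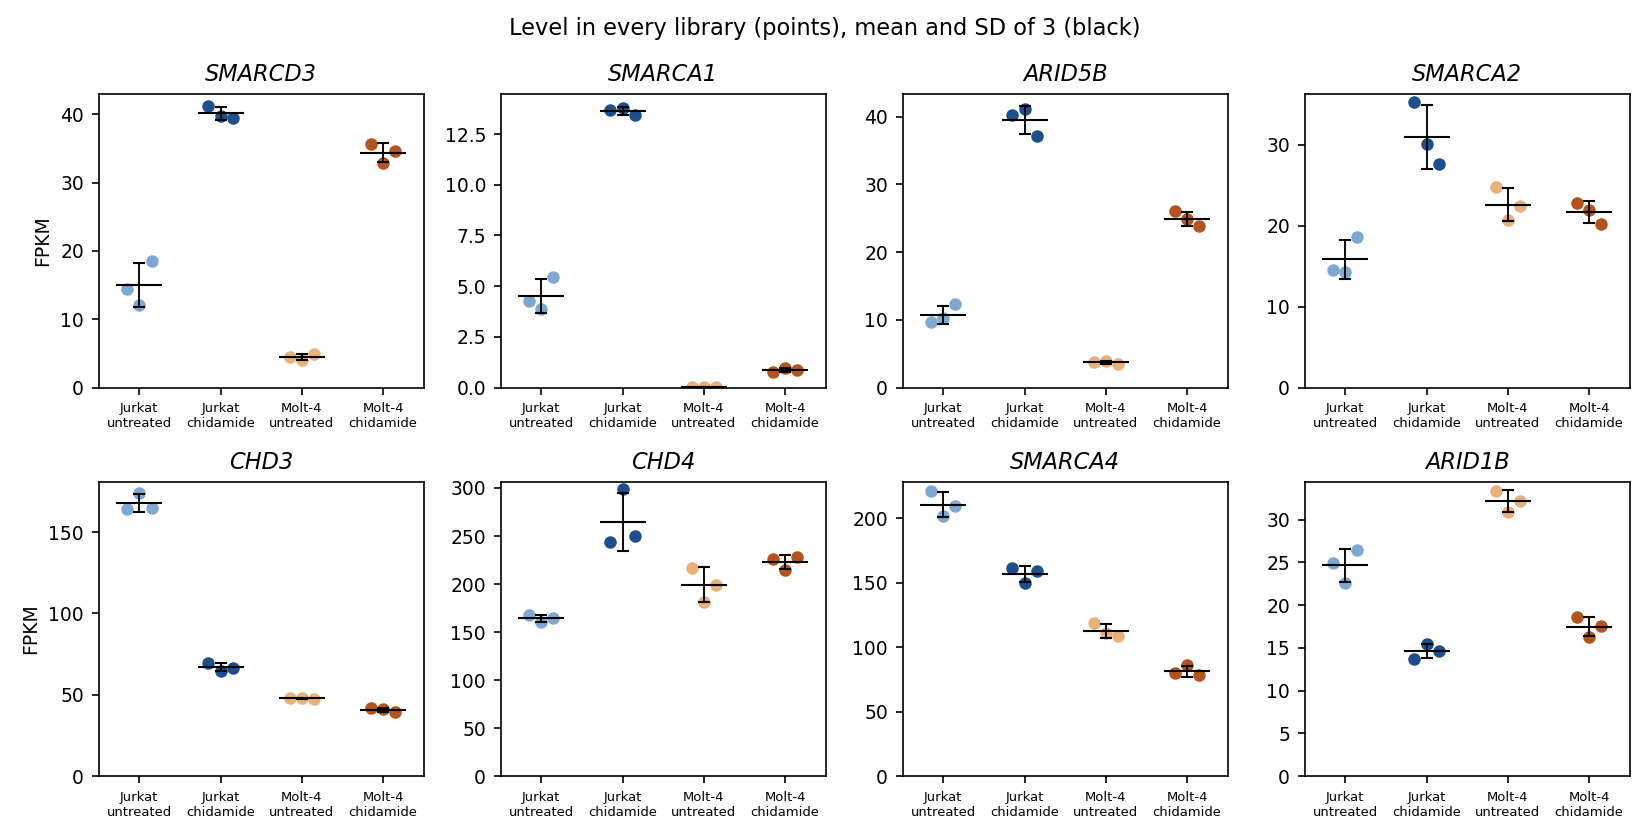
FPKM of 8 genes in each of the 12 libraries (coloured points, linear axes from 0), with the mean and SD of 3 libraries in black. SMARCD3 and ARID5B rise in both lines, SMARCA2 and CHD4 separate only in Jurkat, and CHD3 drops from a mean of 168 to 66.9 FPKM in Jurkat.

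The ISWI ATPases responded unequally. SMARCA1 (SNF2L), known best from neural tissue, rose in Jurkat from 4.27, 3.86 and 5.45 FPKM to 13.7, 13.8 and 13.4 (log2 change 1.41 ± 0.11 SE, limma adjusted p = 3.54e-07). In Molt-4 it went from 0.04, 0.02 and 0.03 FPKM to 0.78, 0.95 and 0.87 (log2 change 0.86 ± 0.11 SE, limma adjusted p = 2.08e-05). The Molt-4 groups did not overlap, but all of these libraries were below 1 FPKM, and the gene was tested because of its Jurkat levels. With quantile normalization the Molt-4 call was lost (log2 change 0.16, limma adjusted p = 0.113).

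SMARCA5 (SNF2H), the ISWI ATPase found in nearly all cells, stood at 39.5, 38.1 and 31.0 FPKM in untreated and 39.4, 40.7 and 37.0 in treated Jurkat, with overlap. In Molt-4 it went from 34.0, 36.6 and 32.7 FPKM to 29.7, 28.8 and 27.4 (log2 change -0.26 ± 0.09 SE, limma adjusted p = 0.0216). The Molt-4 call was lost without untreated Molt-4 replicate 2 (limma adjusted p = 0.0826) and without treated Molt-4 replicate 3 (limma adjusted p = 0.0759).

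The window before the single RefSeq start of SMARCA1, on the minus strand at chrX:129523491-129523740 (GRCh38.p14), is shown because this gene had the lowest untreated level of the members that rose in both lines. It holds 16 CG pairs and no GC box, so no letter is in capitals.
SMARCA1: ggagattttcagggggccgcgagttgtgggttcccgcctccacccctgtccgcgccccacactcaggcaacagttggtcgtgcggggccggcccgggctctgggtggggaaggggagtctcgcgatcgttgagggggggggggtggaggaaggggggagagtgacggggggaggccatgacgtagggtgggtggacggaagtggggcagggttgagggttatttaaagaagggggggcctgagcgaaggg

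CHD3 and CHD4, the alternative ATPases of NuRD, changed in opposite directions in Jurkat. CHD3 stood at 164, 174 and 165 FPKM in untreated and 69.7, 64.8 and 66.2 in treated Jurkat, the largest fall of any member there (log2 change -1.31 ± 0.05 SE, limma adjusted p = 1.07e-09). In Molt-4 it went from 47.9, 48.0 and 47.5 FPKM to 41.8, 41.0 and 39.4, a much smaller drop without overlap (log2 change -0.23 ± 0.05 SE, limma adjusted p = 0.00147).

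CHD4 rose in Jurkat from 168, 160.2 and 165 FPKM to 244, 299 and 250.3 (log2 change 0.68 ± 0.08 SE, limma adjusted p = 1.76e-05). In Molt-4 it was at 217, 181 and 199 FPKM before and 226, 214 and 229 after treatment, and the groups overlapped (log2 change 0.17 ± 0.08 SE, limma adjusted p = 0.0923). The Molt-4 value passed with quantile normalization (limma adjusted p = 0.0201), without untreated Molt-4 replicate 1 (limma adjusted p = 0.0351) and without treated Jurkat replicate 2 (limma adjusted p = 0.0408).

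The window before the RefSeq start of CHD3, at chr17:7888539-7888788 on the plus strand (GRCh38.p14), is shown for the gene with the largest fall. It holds 9 CG pairs and no GC box.
CHD3: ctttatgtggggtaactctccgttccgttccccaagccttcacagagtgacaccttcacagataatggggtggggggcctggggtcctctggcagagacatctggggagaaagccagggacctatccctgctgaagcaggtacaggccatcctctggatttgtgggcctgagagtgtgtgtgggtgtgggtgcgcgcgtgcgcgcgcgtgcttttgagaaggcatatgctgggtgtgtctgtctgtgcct

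CHD1, which binds trimethylated lysine of histone H3 at active genes, fell in both lines. Jurkat libraries went from 51.8, 48.5 and 49.6 FPKM to 24.6, 24.5 and 24.2 (log2 change -1.0 ± 0.09 SE, limma adjusted p = 1.67e-06). Molt-4 libraries went from 42.1, 45.4 and 43.9 FPKM to 31.0, 29.2 and 23.0 (log2 change -0.65 ± 0.09 SE, limma adjusted p = 5.3e-05). No treated library reached the untreated range.

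CHD9 fell in Molt-4 from 17.1, 16.02 and 16.7 FPKM to 10.45, 10.6 and 10.1 (log2 change -0.63 ± 0.09 SE, limma adjusted p = 9.77e-05). In Jurkat its groups overlapped, at means of 6.87 and 8.07 FPKM. CHD7, whose mutation causes CHARGE syndrome, rose in Jurkat from a mean of 14.1 to 24.2 FPKM (log2 change 0.74, limma adjusted p = 0.0036), and stood at 26.3 and 27.3 FPKM in Molt-4. CHD6 and CHD8 passed in neither line, with changes between -0.08 and 0.26. CHD6 went from a mean of 12.8 to 15.3 FPKM in Jurkat and from 14.6 to 17.4 in Molt-4, and CHD8 from 50.0 to 47.3 and from 35.9 to 36.1. Of the 7 CHD genes tested, 2 were higher and 2 lower in Jurkat, and none higher and 3 lower in Molt-4. The Jurkat counts lay near the 30.9% and 25.4% of all genes, and in Molt-4 the background was 35.4% higher and 24.6% lower.

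INO80, the ATPase of the complex of that name, overlapped between the Jurkat groups, at 12.6, 13.4 and 11.7 FPKM before and 11.1, 11.1 and 13.96 after treatment. In Molt-4 it fell from 11.8, 13.3 and 11.6 FPKM to 6.78, 7.39 and 7.20, with a clear gap (log2 change -0.70 ± 0.10 SE, limma adjusted p = 6.3e-05).

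INO80D, an accessory subunit, fell in Jurkat from 4.57, 4.31 and 5.00 FPKM to 2.99, 3.43 and 4.05 (log2 change -0.33 ± 0.10 SE, limma adjusted p = 0.014). In Molt-4 it fell from 4.86, 5.09 and 5.01 FPKM to 3.04, 2.99 and 2.69 (log2 change -0.62 ± 0.10 SE, limma adjusted p = 0.000207). The Jurkat call was lost without treated Jurkat replicate 1 (limma adjusted p = 0.0675) and in a fit of only the groups compared (0.0538). INO80C fell in Molt-4 from a mean of 19.5 to 15.4 FPKM (log2 change -0.32, limma adjusted p = 0.0277), and that call was lost when any 1 of 4 Molt-4 libraries was left out: untreated replicate 2 (limma adjusted p = 0.0995), untreated replicate 3 (0.0866), treated replicate 2 (0.0604) or treated replicate 3 (0.0791). In Jurkat INO80C had means of 26.2 and 31.8 FPKM with overlapping groups. INO80B and INO80E passed in neither line, with changes between -0.13 and 0.21. INO80B had means of 64.3 and 63.8 FPKM in Jurkat and 33.2 and 38.1 in Molt-4. None of the 5 INO80 subunits was higher in either line, while 1 was lower in Jurkat and 3 in Molt-4, beside 30.9% and 35.4% of all genes higher and 25.4% and 24.6% lower. With quantile normalization and with equal totals 1 subunit was higher in Jurkat.

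The other ARID genes, which encode DNA-binding cofactors outside the core remodellers, went up or did not pass: 4 of 6 were higher in each line and none was lower, where 30.9% of all genes were higher in Jurkat and 35.4% in Molt-4. ARID5B, a cofactor of the histone demethylase PHF2 and a risk locus of childhood acute lymphoblastic leukaemia, stood at 9.71, 10.3 and 12.3 FPKM in untreated and 40.2, 41.1 and 37.2 in treated Jurkat. In Molt-4 it went from 3.83, 3.92 and 3.41 FPKM to 26.01, 24.9 and 23.9. All treated libraries of both lines lay above all untreated libraries of both (log2 change 1.79 ± 0.09 SE and 2.46 ± 0.09, limma adjusted p = 1.21e-08 and 6.5e-10).

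RefSeq annotates 2 starts of ARID5B on the plus strand of chromosome 10, and the windows before them are shown because this gene had the largest rise in Jurkat after the readthrough entry INO80B-WBP1. They lie at chr10:61901449-61901698 and chr10:62049107-62049356 (GRCh38.p14).
ARID5B start 1: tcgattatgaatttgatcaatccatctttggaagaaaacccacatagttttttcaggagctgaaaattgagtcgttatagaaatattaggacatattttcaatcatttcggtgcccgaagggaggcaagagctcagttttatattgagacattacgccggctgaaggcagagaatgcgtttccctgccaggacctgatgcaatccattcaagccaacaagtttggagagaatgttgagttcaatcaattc
ARID5B start 2: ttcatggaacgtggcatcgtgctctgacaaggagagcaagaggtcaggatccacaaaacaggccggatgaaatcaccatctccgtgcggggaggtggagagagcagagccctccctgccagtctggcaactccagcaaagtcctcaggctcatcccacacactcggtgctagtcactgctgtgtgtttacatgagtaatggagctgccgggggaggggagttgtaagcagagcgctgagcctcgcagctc
They hold 7 and 9 CG pairs and no GC box. The TATA box letters, TATAAA or TTTATA, occur once before start 1 and not before start 2.

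Over the members, 29 of 39 matched the RefSeq promoter table, with 47 windows of 250 bases before a start. A GC box was found in 48.9% of them and in 42.6% of all 35116 windows of the same length. CCAAT or its reverse complement ATTGG was found in 23.4% against 32.0%, the TATA box letters in 4.26% against 10.7%, and the E-box CACGTG in 2.13% against 6.34%. The median number of CG pairs was 20 against 11. Windows of 1 gene can overlap, and a match describes these letters only.

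ARID3B, a relative of the B-cell factor ARID3A, rose in Jurkat from 10.2, 10.2 and 11.6 FPKM to 19.6, 20.4 and 19.9 (log2 change 0.85 ± 0.07 SE, limma adjusted p = 9.33e-07). In Molt-4 it rose from 13.9, 13.0 and 14.5 FPKM to 19.6, 20.3 and 19.4 (log2 change 0.49 ± 0.07 SE, limma adjusted p = 8.18e-05). The untreated lines did not overlap, and the treated ones did.

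ARID3A itself rose in Molt-4 from 40.4, 38.5 and 35.3 FPKM to 45.3, 49.5 and 51.7 (log2 change 0.35 ± 0.09 SE, limma adjusted p = 0.00506). In Jurkat it overlapped at means of 18.7 and 20.8 FPKM. ARID5A, an RNA-binding protein that stabilises inflammatory transcripts, rose in Jurkat from a mean of 9.12 to 17.0 FPKM (log2 change 0.84, limma adjusted p = 8.06e-05). In Molt-4 its libraries went from 7.42, 9.34 and 6.69 FPKM to 9.62, 9.89 and 10.7 (log2 change 0.34 ± 0.12 SE, limma adjusted p = 0.0275). The Molt-4 call of ARID5A was lost with quantile normalization (limma adjusted p = 0.335) and without untreated Molt-4 replicate 1 (0.0767), untreated replicate 3 (0.116), treated replicate 2 (0.0539) or treated replicate 3 (0.0901). ARID4B, a subunit of SIN3 deacetylase complexes, rose in Jurkat from a mean of 17.9 to 25.2 FPKM (log2 change 0.49, limma adjusted p = 0.00214). In Molt-4 it went from 14.5 to 16.5 FPKM without overlap but did not pass (log2 change 0.18, limma adjusted p = 0.182). The difference of the 2 responses of ARID4B did not pass either (limma adjusted p = 0.146). Its paralogue ARID4A passed in neither line.

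SMARCAD1, known for maintaining heterochromatin and for processing DNA breaks, had a small fall in both lines, from means of 27.0 to 22.7 FPKM in Jurkat and 25.1 to 20.7 in Molt-4 (log2 change -0.23 and -0.26, limma adjusted p = 0.0382 and 0.0209). The Jurkat call was lost without any 1 of 5 Jurkat libraries (limma adjusted p between 0.0585 and 0.153), the exception being untreated replicate 2. It was also lost with quantile normalization (limma adjusted p = 0.0714), with equal totals (0.185) and in a fit of only the groups compared (0.0907). The Molt-4 call was lost without untreated replicate 1 (limma adjusted p = 0.0837), untreated replicate 3 (0.0542) or treated replicate 2 (0.0719). SMARCAL1, an annealing helicase of stalled replication forks, fell in Jurkat from a mean of 20.5 to 17.3 FPKM (log2 change -0.23, limma adjusted p = 0.00717). That call was lost with totals made equal without 7SL RNA (limma adjusted p = 0.0773).

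INO80B-WBP1, a readthrough transcript of INO80B and its neighbour WBP1, was listed at 0.00, 0.26 and 0.00 FPKM in untreated and 3.26, 4.87 and 1.57 in treated Jurkat (log2 change 1.89 ± 0.38 SE, limma adjusted p = 0.00111). In Molt-4 the values were 1.74, 0.00 and 0.00 FPKM against 1.65, 0.60 and 1.03. Its exons are shared with INO80B and WBP1, so the division of reads among them is uncertain. The antisense RNA SMARCA5-AS1 passed in neither line, at means between 15 and 20.6 FPKM, and whether the counting used strand is not given in the sources used here. Of the 3 genes not tested, CHD5 lay between 0.20 and 1.28 FPKM, ARID3C between 0.00 and 1.12, and INO80-AS1 was listed at 0 in all libraries except treated Jurkat replicate 1 at 0.26. ARID3C was listed at 0 in all untreated Molt-4 libraries and at 0.19, 0.29 and 0.29 FPKM in the treated ones.

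The responses of the lines differed in 16 of 36 members, of which 3 were higher and 13 lower in Molt-4 relative to Jurkat, where 31.9% of all genes were called, 19.8% higher and 12.1% lower (limma, adjusted p under 0.05). The median difference of the responses was -0.22 for the members and 0.04 for all genes. With quantile normalization the share of all called genes that were higher moved from 62.2% to 45.9%, and with equal totals to 50.8%. The members then counted 3 higher and 16 lower, and 3 higher and 15 lower. Without treated Molt-4 replicate 2 the number of members lower in Molt-4 dropped to 8. The share of all genes that were lower then went from 12.1% to 10.3%.

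SMARCD3 rose more in Molt-4 by 1.30 ± 0.17 on the log2 scale and ARID5B by 0.67 ± 0.13 (SE, limma adjusted p = 0.000112 and 0.00159). CHD3 fell less in Molt-4 (difference 1.09 ± 0.07 SE, limma adjusted p = 3.46e-07). On the other side, SMARCA2 rose in Jurkat without a matching move in Molt-4 (difference -0.98 ± 0.16 SE, limma adjusted p = 0.000674). CHD9 and INO80, which fell in Molt-4, differed by -0.84 ± 0.13 and -0.64 ± 0.14 (SE, limma adjusted p = 0.000506 and 0.00403). INO80C differed by -0.59 ± 0.16 and CHD4 by -0.51 ± 0.11 (SE, limma adjusted p = 0.014 and 0.00467).

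ARID3B, SMARCE1, SMARCC1, ARID5A, SMARCA5, SMARCD1 and SMARCB1 differed by between -0.21 and -0.50. Of these, ARID3B and SMARCE1 were called under all alternatives tried, while the other 5 lost the call in some of them, with adjusted p up to 0.103 (limma). Leaving out 1 library ended the call of SMARCD1 for all libraries except untreated Jurkat replicate 2, that of ARID5A for all except replicate 3 of untreated Jurkat and of untreated Molt-4, and that of SMARCB1 for all except these same 2 and treated Molt-4 replicate 3. The call of SMARCA5 ended without treated Jurkat replicate 1 or 2, untreated Molt-4 replicate 1 or 2, or treated Molt-4 replicate 2 or 3. The call of SMARCC1 ended without treated Jurkat replicate 3, untreated Molt-4 replicate 1 or 3, or treated Molt-4 replicate 1 or 2. SMARCA1 differed by -0.56 ± 0.15 (SE, limma adjusted p = 0.0132), and this sign depended on the pseudocount: with 0.1 in place of 1 the difference was 1.31 (limma adjusted p = 0.00139), with untreated Molt-4 at 0.02 to 0.04 FPKM. CHD1 and SMARCD2 missed the threshold narrowly (limma adjusted p = 0.0534 and 0.0567), so they are not shown to respond alike.

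Within sets of paralogues that fill the same place in a complex, the shares of summed FPKM showed the balance among them. SMARCA2 made up 6.17%, 6.66% and 8.18% of SMARCA2 plus SMARCA4 in untreated and 17.9%, 16.7% and 14.8% in treated Jurkat. In Molt-4 its share was 17.3%, 15.7% and 17.1% before and 22.3%, 20.4% and 20.6% after treatment. Treated libraries lay above untreated ones in both lines, in Molt-4 with SMARCA4 falling and SMARCA2 within its spread.

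SMARCD3 made up 7.28%, 5.45% and 9.08% of the SMARCD set in untreated and 18.3%, 16.7% and 16.7% in treated Jurkat, and 2.75%, 2.5% and 2.95% against 21.0%, 19.5% and 20.3% in Molt-4. The mean share of SMARCD1 went from 56.1% to 51.5% in Jurkat and from 59.8% to 51.1% in Molt-4. That of SMARCD2 went from 36.6% to 31.3% and from 37.4% to 28.6%. SMARCD1 remained the main member of its set in all 12 libraries.

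SMARCA1 went from 11.3% ± 3.18 to 25.9% ± 0.66 of SMARCA1 plus SMARCA5 in Jurkat (SD, n = 3). In Molt-4 it went from 0.0879% ± 0.0316 to 2.94% ± 0.338 (SD, n = 3). ARID1B made up 19.7% ± 1.41 of ARID1A plus ARID1B in untreated and 13.4% ± 1.12 in treated Jurkat, and 28.3% ± 1.5 and 18.2% ± 1.13 in Molt-4 (SD, n = 3). CHD3 made up 50.4% ± 1.42 of CHD3, CHD4 and CHD5 in untreated and 20.3% ± 2.27 in treated Jurkat, and 19.4% ± 1.43 and 15.4% ± 0.675 in Molt-4 (SD, n = 3). SMARCC2 took 41.4% ± 1.89 of SMARCC1 plus SMARCC2 in untreated and 49.4% ± 1.42 in treated Molt-4 (SD, n = 3), and in Jurkat 35.8% and 35.6% with overlapping groups.

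These shares were compared in 24 ways, each paralogue with and without drug in each line and between the untreated lines. In 21 of them the groups did not overlap, which gives p = 0.1 in an exact two-sided permutation test, the smallest that 3 against 3 libraries allow, and 0.114 after Benjamini-Hochberg adjustment over the 24. The 3 that overlapped had exact p between 0.4 and 1.0: SMARCC2 with and without drug in Jurkat, and SMARCC2 and SMARCD2 between the untreated lines. The design therefore cannot bring a single share past 0.05. Of all single genes tested, 60.7% did not overlap with and without drug in Jurkat and 67.3% in Molt-4. Between the untreated lines 66.7% did not overlap. The SMARCD shares are parts of the same sum, so the 24 comparisons are not independent.

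**Figure D4:**
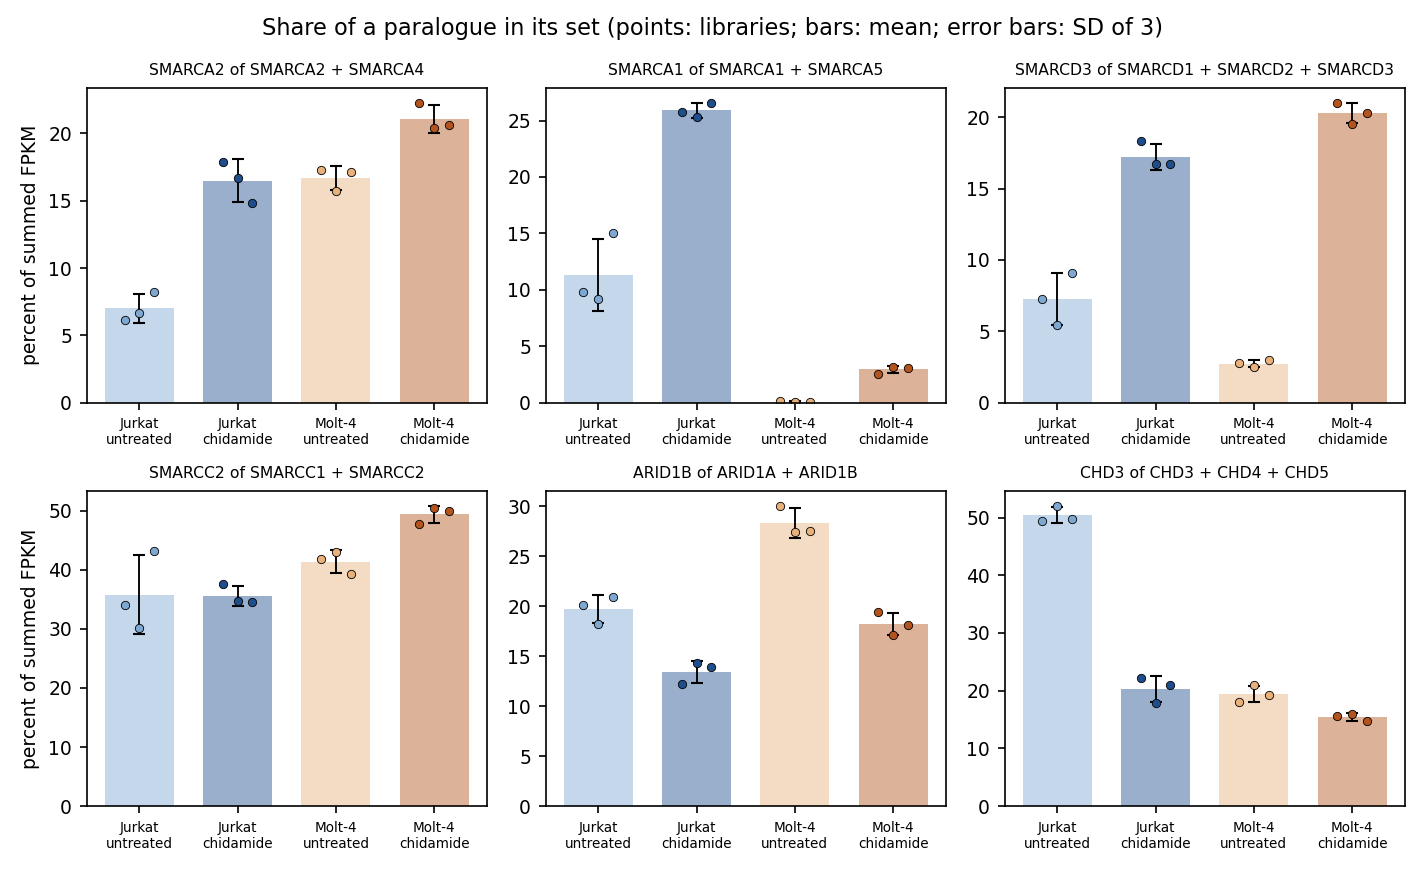
Share of 1 paralogue in the summed FPKM of its set, in percent (vertical axes from 0); bars are means of 3 libraries, error bars SD, and points the libraries. SMARCD3 reaches 17.2% in treated Jurkat and 20.3% in treated Molt-4, and CHD3 drops from 50.4% to 20.3% in Jurkat.

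Partners of these subunits that the symbol rule does not take were listed by complex. Of 18 tested BAF and PBAF partners, 6 were higher and 5 lower in Jurkat, and 5 higher and 6 lower in Molt-4, with medians of -0.02 and -0.05. These counts lay near the background over all genes tested, 30.9% higher and 25.4% lower in Jurkat and 35.4% higher and 24.6% lower in Molt-4. The Jurkat median changed sign, to 0.06, with quantile normalization. DPF3, a reader of acetylated histones that joins SMARCD3 in heart and muscle complexes, went from a mean of 4.11 ± 0.625 to 23.3 ± 3.11 FPKM in Jurkat (SD, n = 3; log2 change 2.25, limma adjusted p = 3.03e-08). In Molt-4 it went from 3.76 ± 0.643 to 37.0 ± 0.490 FPKM (SD, n = 3; log2 change 3.0, limma adjusted p = 1.83e-09). Its relative DPF1, known from neuronal BAF, rose by 0.63 in Jurkat and 1.35 in Molt-4 on the log2 scale (limma adjusted p = 0.00163 and 3.57e-06). BCL7A, a BAF subunit altered in lymphoma, went from 53.8 ± 4.81 to 20.3 ± 0.363 FPKM in Jurkat and from 34.7 ± 2.64 to 13.4 ± 0.130 in Molt-4 (SD, n = 3). It changed by -1.36 and -1.31 on the log2 scale, and BCL11A, a BAF subunit and repressor of fetal globin, by -0.97 and -0.62 (limma, all adjusted p under 0.05).

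Of the 12 NuRD partners none was higher and 6 were lower in Jurkat, and 1 was higher and 6 were lower in Molt-4, with medians of -0.21 and -0.23, where 30.9% and 35.4% of all genes were higher and 25.4% and 24.6% lower. The Jurkat count became 2 higher and 6 lower with quantile normalization and with equal totals. CDK2AP1 had the largest change, -1.12 in Jurkat and -0.98 in Molt-4 (limma adjusted p = 6.73e-06 and 1.87e-05). MTA1 fell by 0.72 and 0.57 on the log2 scale, and MBD3, a structural subunit of the complex, by 0.53 and 0.73. MTA3 fell only in the Jurkat test, by 0.64, and this differed between the lines (difference 0.67, limma adjusted p = 0.00287). The deacetylase HDAC1 was the 1 called higher in Molt-4, from a mean of 235 to 266 FPKM (limma adjusted p = 0.0332, called in 16 of 21 alternatives), and HDAC2 passed in neither line. HDAC1 and HDAC2 were looked up after the counts were seen.

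Among the 10 ISWI partners 1 was higher and 4 lower in Jurkat and 1 higher and 6 lower in Molt-4, beside 30.9% and 35.4% of all genes higher and 25.4% and 24.6% lower. CECR2, a bromodomain partner of SMARCA1 and SMARCA5, rose in Jurkat from a mean of 0.457 to 1.98 FPKM (log2 change 1.05, limma adjusted p = 2.79e-05). The accessory subunits BAZ1A and CHRAC1 fell in both lines, BAZ1A by 0.57 and 0.76 and CHRAC1 by 0.62 and 0.71 on the log2 scale. POLE3 fell by 0.2 in Jurkat, where the call held in 5 of 21 alternatives, and by 0.48 in Molt-4.

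Of 15 tested partners in INO80, SRCAP and EP400 complexes, 3 were higher and 7 lower in Jurkat and 1 higher and 8 lower in Molt-4. Of all genes, 30.9% were higher and 25.4% lower in Jurkat, and 35.4% higher and 24.6% lower in Molt-4. ACTR6 fell by 0.78 in Jurkat, the deubiquitinase UCHL5 by 0.69 and 0.52, and the histone reader YEATS4 by 0.50 and 0.37 on the log2 scale, while MCRS1 fell by 0.42 in Molt-4. Of 11 other SNF2-family ATPases, 1 was higher and 7 lower in Jurkat and none higher and 6 lower in Molt-4, with medians of -0.34 and -0.24. In the list 63.6% and 54.5% were lower, against 25.4% and 24.6% of all genes, and 30.9% and 35.4% of all genes were higher. The recombination factor RAD54L fell by 0.90 in Jurkat and 0.64 in Molt-4, and TTF2 by 0.61 and 0.24. SHPRH fell by 0.21 and 0.34, with its Jurkat call held in 7 of 21 alternatives, and CHD1L by 0.34 and 0.33. RAD54B fell by 0.47 in Jurkat and did not pass in Molt-4 (limma adjusted p = 0.0928).

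**Figure D5:**
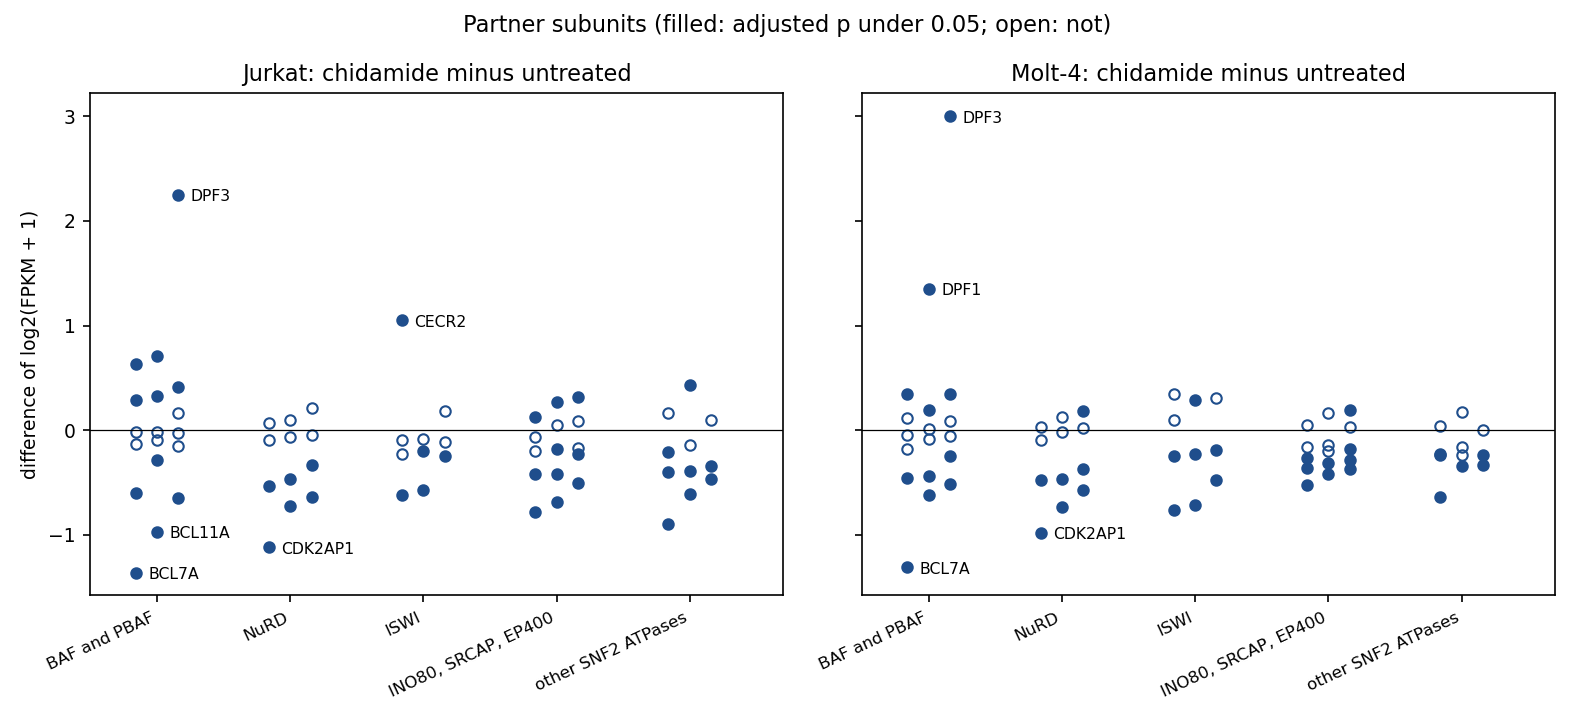
Change with chidamide of partner subunits in Jurkat (left) and Molt-4 (right), as differences of log2(FPKM + 1), by complex; each point is 1 gene, filled where the adjusted p was under 0.05. DPF3 stands highest in both lines, at 2.25 and 3.0, and BCL7A lowest, at -1.36 and -1.31.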

How the data were processed

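The authors deposited 1 table of FPKM values per gene. The submitters' processing notes name STAR, HTSeq and DESeq2 with the build hg19, without versions and without saying how FPKM was obtained. It was checked whether low values of short genes fall on steps worth 1 read. No shared step was found, so the depth stays unknown and counting error cannot be given.

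All 12 libraries were used, in the 4 groups of the labels. The 13840 genes that reached 1 FPKM in 3 or more libraries were transformed as log2(FPKM + 1), a scale that understates changes of low genes. limma 3.58.1 in R 4.3.3 fitted 1 mean per group (eBayes with trend, 8 residual degrees of freedom), after a test on simulated data. P-values were two-sided, with Benjamini-Hochberg adjustment over all genes tested, and called under 0.05. Paralogue shares were compared by exact permutation tests (SciPy 1.17.1).

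The members and lists were chosen with earlier results of these data known. Values per library are given for SMARCA1, SMARCA2, SMARCA4, SMARCA5, CHD3, CHD4 and INO80 and for up to 6 highest and 6 lowest called members per line, and up to 4 each for the line difference and the untreated comparison. Each partner list adds up to 3 called genes per line. Genes further down these ranks are given by their means. Means alone are also given for INO80C, for CHD7 and ARID3A in Jurkat, and for CHD9 in treated Jurkat. Promoter sequences come from the RefSeq table in GRCh38.p14 and were matched by symbol, while the files use hg19, and no coordinate was carried between them. Alternatives were a pseudocount of 0.1, no filter and a filter of 5 FPKM, 3 scalings, robust empirical Bayes, a fit of only the groups compared, a block for replicate number, and each library left out in turn. A further listed marker is not reported here.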

Additional observations from a re-analysis of the deposited data

Results flagged for a closer look

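The following members are listed because the test of the difference between the responses of the lines passed (limma, adjusted p under 0.05 over all genes tested, where 31.9% of genes pass). Values are the log2 change in Molt-4 minus that in Jurkat. Among the SWI/SNF subunits, SMARCD3 had 1.30, SMARCA2 -0.98, SMARCC1 -0.47, SMARCE1 -0.41, SMARCD1 -0.23 and SMARCB1 -0.21. The ISWI ATPases SMARCA1 and SMARCA5 had -0.56 and -0.37. Among the CHD genes CHD3 had 1.09, CHD9 -0.84 and CHD4 -0.51. INO80 and INO80C had -0.64 and -0.59. Among the other ARID genes ARID5B had 0.67, ARID5A -0.50 and ARID3B -0.36. Single members were not searched for outlying libraries within groups of 3, and the comparison of whole libraries is given above.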

How the results depend on the processing

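Of the 19 members called in Jurkat 16 were called under every alternative tried, of the 21 in Molt-4 15, of the 16 with a difference between the lines 10, and of the 26 between the untreated lines 23. The others are INO80D, SMARCAD1 and SMARCAL1 in Jurkat, and ARID2, ARID5A, INO80C, SMARCA1, SMARCA5 and SMARCAD1 in Molt-4. For the difference they are ARID5A, SMARCA1, SMARCA5, SMARCB1, SMARCC1 and SMARCD1, and between the untreated lines ARID4B, SMARCD1 and SMARCE1. The share of all called genes that held under every alternative is not given here, so these counts stand without a background. With 1 library left out, the number of members lower in Molt-4 relative to Jurkat lay between 8 and 13. Between 9.36% and 14.6% of all genes were lower in these fits. The other 7 counts of members stayed within 1.5 times their value in all alternatives. The sign of the SMARCA1 difference turned with a pseudocount of 0.1 (1.31 in place of -0.56); the gene's level of 0.02 to 0.04 FPKM in untreated Molt-4 sets that value. The change of the SMARCC2 share in Jurkat, -0.191 percentage points, lay between -2.99 and 3.5 with 1 library left out, among them 3.5 without untreated replicate 3, 0.217 without treated replicate 2 and 0.385 without treated replicate 3.

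Same-numbered libraries of 2 groups showed no clear shared deviation. Correlations of their deviations from the group means lay between -0.0858 and 0.0408, and those of differently numbered libraries between -0.0284 and 0.0794. Deviations from a mean of 3 libraries are tied to each other, so these values cannot exclude that replicates were paired. With the replicate block, members counted 12 higher and 8 lower in Jurkat and 6 and 15 in Molt-4. They counted 3 and 11 for the difference, and 9 and 16 between the untreated lines. Of all genes, 30.4% were then higher and 25.1% lower in Jurkat, and 35.0% and 24.2% in Molt-4. For the difference 19.0% and 11.2% were, and between the untreated lines 27.6% and 37.0%. Without counts the precision of low values, such as those of SMARCA1 in Molt-4, CHD5, ARID3C and INO80B-WBP1, cannot be given. A filter of 5 FPKM left 35 members.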
